A study of Mus musculus with 9 samples.

Results

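Follicular B cells of the mouse spleen were picked out of a CITE-seq experiment, in which transcripts and antibody tags are read from the same cells. A barcode was taken as 1 cell if it had at least 200 genes, at most 10% mitochondrial UMIs (UMIs count original molecules) and a leading hashtag of at least 20 UMIs that was at least 3 times the next one. A single cell was called a B cell with at least 3 UMIs of Cd79a and Cd79b together, the signalling chains of the B cell receptor, and none of the T cell chains Cd3d, Cd3e and Cd3g. It was called follicular with at least 2 UMIs of Fcer2a, which encodes CD23, at least 1 UMI of Ighd, the constant region of IgD, no UMI of Cd93 and no UMI of Myof, Dtx1 or S1pr3. The members were thus chosen by their own RNA counts of these 11 genes, which are described below without a test. This rule took 3200 cells of 23760 B cells and of 45217 single cells. They came from 10 replicates, with 705 and 534 cells in R594C/R594C, 186, 226, 218 and 252 in R594C/+, and 178 to 359 in the 4 WT replicates.

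IRE1, encoded by Ern1 (chromosome 11, 106397620 to 106487796, GRCm38.p6), senses stress of the endoplasmic reticulum (ER), and the study asked if its R594C mutation alters the immune cells of the mouse. DAPI, which stains dead cells, was used to sort the splenocytes, and each genotype was 1 droplet capture: homozygous R594C/R594C (replicates 1 and 2), heterozygous R594C/+ (replicates 1 to 4) and WT (replicates 1 to 4). The labels give no strain or age. They name replicates without tying each to an animal of its own. Expressed sex, given below, differed between the R594C/R594C replicates and among those of WT, so neither group came from 1 animal. The p-values cover only the spread among these samples, which may be technical wholly in R594C/+ and in part elsewhere. A genotype cannot be told apart from its capture and the libraries of that capture.

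Follicular B cells are the main recirculating B cells of spleen and lymph node. They leave the bone marrow as immature transitional cells, settle in follicles under the pull of the chemokine receptor CXCR5, carry IgD in excess of IgM with the low-affinity IgE receptor CD23 on their surface, and wait there for antigen and T cell help. Marginal zone B cells lie at the border of the follicles, carry much IgM, CD21 and CD1d, and respond to blood-borne antigen without that help.

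The rule read RNA and hashtags only, so the antibody tags are a measurement that it did not use. Each antibody carried a 15-base barcode, shown here because these counts did not choose the cells. The CD23 and IgD tags read the proteins of Fcer2a and Ighd, whose RNA the rule did use, so these 2 are not independent of it. Every letter of the barcode is in capitals and is given 5′ to 3′ as deposited by the authors.
CD23: TCTCTTGGAAGATGA
IgD: TCATATCCGTTGTCC
IgM: AGCTACGCATTCAAT
CD21_CD35: GGATAATTTCGATCC
CD1d: CAACTTGGCCGAATC
CD55: ATTGTTGTCAGACCA
CD24: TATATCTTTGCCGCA
Tim4: TGCTGGAGGGTATTC
The replicates were told apart by 4 hashtags, antibodies to CD45 and MHC class I with the barcodes below, of which R594C/R594C used the first 2.
Hashtag 1: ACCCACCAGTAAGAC
Hashtag 2: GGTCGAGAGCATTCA
Hashtag 3: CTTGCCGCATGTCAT
Hashtag 4: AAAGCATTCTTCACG

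The captures held 17444 barcodes with 74538447 RNA UMIs in R594C/R594C, 17980 with 87953814 in R594C/+ and 16027 with 74546390 in WT. Between 0.390% and 0.510% of the barcodes of a capture also occurred in another capture. Follicular cells had a median of 2652 to 3107 RNA UMIs and 421 to 480 tag UMIs per cell across replicates. Summed per replicate they gave 590885 to 2264084 RNA UMIs and 85475 to 343818 tag UMIs, so the R594C/R594C sums were the deepest and the rest shallower. Libraries that stood apart were few: transcripts of immunoglobulin took 4.98% of the follicular UMIs in WT replicate 4, 3.90% in R594C/+ replicate 4 and 3.33% in R594C/+ replicate 1, where the lowest replicate had 1.34%. In all, 31 of the 3200 cells held over 10% immunoglobulin UMIs or at least 10 UMIs of neutrophil, erythroid or monocyte genes, and results were also computed without them, a choice made after seeing the data. By the Y-linked gene Ddx3y and by Xist, R594C/R594C replicate 1 and WT replicates 1, 3 and 4 were male and all 4 R594C/+ replicates female, so expressed sex moved with the comparison of R594C/+ and WT.

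Follicular and general B cell markers that the rule did not use were in larger shares of these cells than of T cells. Cxcr5 had a UMI in 58.6% of follicular cells and in 6.57% of the cells of a T cell gate, which should lack it. Cd55, a complement regulator, had one in 70.3% and 16.9%, Fcmr, the Fc receptor of IgM, in 78.9% and 2.72%, and Ms4a1, which encodes CD20, in 88.8% and 3.20%. The T cell gate allowed no Cd79a or Cd79b UMI, so this contrast sets B cells against T cells. In the marginal zone gate described below, Cxcr5 was in 69.4%, Cd55 in 43.9%, Fcmr in 74.6% and Ms4a1 in 97.3% of cells. Cxcr5 and Ms4a1 were thus in smaller shares of follicular cells than of that gate, whose cells were deeper (median 4934 to 5540.5 UMIs). The replicates' median depth was 2652 to 3107 UMIs in follicular cells and 2917 to 4074 in T cells, so the deeper T cells set a cautious background. Naive lymphocytes of both kinds use the homing receptor Ccr7, which had a UMI in 88.2% of follicular cells and 59.7% of T cells. Genes of germinal centre cells were near 0: S1pr2 had a UMI in 0.53% of follicular cells, Gcsam in 0.16%, Fas in 2.28% and the cycling gene Mki67 in 1.56%. Those of B1 cells were mixed, with Cd5 in 0.66% and Bhlhe41 in 2.59%, but Zbtb20 in 30.8% of follicular cells and 41.2% of T cells.

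Several transcripts that belong to other cells occurred in follicular cells about as often as in T cells. The plasma cell gene Jchain had a UMI in 29.6% of follicular cells and 32.1% of T cells, the neutrophil gene S100a9 in 11.2% and 12.7%, and the globin gene Hbb-bs in 20.8% and 20.9%. Other plasma cell genes went both ways. Sdc1 was in 2.78% of follicular and 0.53% of T cells, Tnfrsf17 in 0.25% and 0.16%, Prdm1 in 1.34% and 3.96%, and Xbp1 in 15.6% and 20.6%. Whether these UMIs came from free RNA or from the cells was not tested. Defining transcripts of other cells were rarer, with Trac, the T cell receptor alpha chain, in 1.56% of follicular cells against 79.7% of T cells, the macrophage gene Csf1r in 0.84%, the natural killer receptor Ncr1 in 0.44% and the platelet factor Pf4 in 0.03%.

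The genes of the rule are described without a test. A follicular cell had a median of 2 Fcer2a UMIs (range 2 to 13) and 3 Ighd UMIs (range 1 to 17). Just inside the threshold lay 1766 cells with exactly 2 Fcer2a UMIs, and just outside it 3528 cells with 1 UMI that met every other condition; 5924 more had none. Of the members, 593 had a single Ighd UMI, and 378 cells without one were outside. A further 750 cells were kept out by 1 UMI of the marginal zone genes and 147 by 1 UMI of Cd93. Fcer2a in the summed cells was 884 and 788 CPM (the count scaled to the UMI total of the replicate's follicular cells) in R594C/R594C, 828 to 885 in R594C/+ and 776 to 907 in WT. Ighd was 1098 and 996 CPM in R594C/R594C, 968 to 1081 in R594C/+ and 1114 to 1232 in WT. The Fcer2a ranges overlapped, and the Ighd values of both mutant genotypes lay below every WT value.

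The surface CD23 tag followed Fcer2a RNA only loosely and was weakly read. It gave 764 UMIs over all 3200 cells, a median of 0 per cell, while the IgD tag gave 323606. Among cells that met the other conditions, CD23 averaged 346 ± 227 tag CPM (of all tag UMIs) with no Fcer2a UMI, 416 ± 287 with 1, 530 ± 356 with 2 and 638 ± 499 with 3 or more (SD, n = 10 replicates each). The spread between replicates was wide, yet within a replicate CD23 was higher at 3 or more Fcer2a UMIs than at 0 in 9 of 10. IgD averaged 184413 tag CPM at 0 Fcer2a UMIs and 203734, 204818 and 198921 at 1, 2 and 3 or more, and it was higher at 1 than at 0 in 10 of 10 replicates. CD1d, a tag of marginal zone cells, averaged 11654 at 0 and 10408, 10663 and 10360 at 1, 2 and 3 or more, and was higher at 3 or more than at 0 in 0 of 10 replicates. Thus the step in IgD and CD1d lay between 0 and 1 Fcer2a UMI, below the threshold of the rule.

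**Figure D1:**
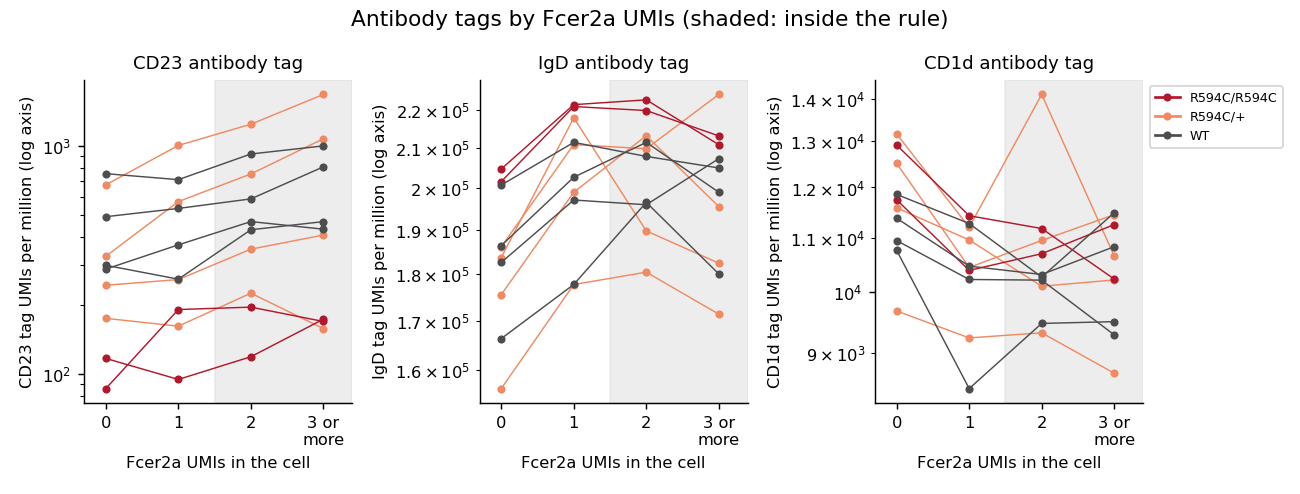
Antibody tag CPM (y axis, log scale) for CD23, IgD and CD1d by the Fcer2a UMIs of the cell (x axis: 0, 1, 2, 3 or more), with 1 line per replicate and the shaded range inside the rule. CD23 climbs with Fcer2a in most replicates (higher at 3 or more than at 0 in 9 of 10), while CD1d is lower at 3 or more than at 0 in 10 of 10.

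Against marginal zone B cells, the follicular cells carried more IgD, CD23 and CD55 and less CD1d, Tim4, CD73 and IgM. The 2922 cells of a marginal zone gate (the same B cell conditions, no Cd93, at least 2 UMIs of Myof, Dtx1 and S1pr3) were the comparator, with a median of 4934 to 5540.5 RNA UMIs per cell. Of 169 tags tested, 62 passed an adjusted p of 0.05 (36.7%; edgeR quasi-likelihood test with each replicate as a block, Benjamini-Hochberg adjustment), 25 higher and 37 lower in follicular cells. With library size alone in place of the trimmed mean (TMM) scaling, 74 passed, 39 higher and 35 lower.

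The IgD tag had 175620, 205110 and 217070 tag CPM (lowest, median and highest replicate) in follicular cells, against 91405, 104210 and 122420 in the marginal zone gate. The ranges did not overlap, and the log2 fold was 0.87 ± 0.05 (SE; edgeR adjusted p = 1.5e-11). CD23 had 145, 446 and 1466 tag CPM in follicular cells and 69.7, 164 and 442 in the marginal zone gate. The ranges overlapped between replicates, but within a replicate CD23 was higher in follicular cells in 10 of 10 (log2 fold 1.46 ± 0.17, edgeR adjusted p = 3.1e-07). That fold rested on 764 UMIs in follicular cells and 327 in the gate. The rule chose cells by the RNA of both proteins, so the IgD and CD23 folds are not independent of it. CD55, which protects cells from complement, had 72105, 92931 and 106740 in follicular cells against 37095, 42171 and 52769 (1.03 ± 0.06, edgeR adjusted p = 7.1e-12). For CD55 every follicular value lay above every marginal zone value. The tags labelled Integrin (0.92), CD200 (0.68), an inhibitory ligand, CD15_mh (0.67) and CD150 (0.65) were also among the 8 highest folds and were higher in follicular cells in 10 of 10 replicates.

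The lowest folds included markers by which marginal zone cells are known. CD1d, which presents lipids, had 9021, 10678 and 12274 tag CPM in follicular cells against 31284, 38702 and 45857 in the marginal zone gate. The 2 ranges were far apart (−1.90 ± 0.06, edgeR adjusted p = 6.6e-16). Tim4, a receptor for phosphatidylserine, had 436, 936 and 1932 in follicular cells against 3321, 4715 and 5971 (−2.28 ± 0.10, edgeR adjusted p = 4.9e-14), and IgM 876, 1122 and 1385 against 2039, 2325 and 2747 (−1.12 ± 0.08, edgeR adjusted p = 1e-10). CD73, an enzyme that makes adenosine (−1.64), CD274, the inhibitory ligand PD-L1 (−1.41), CD107a (−1.40), the costimulatory ligand CD80 (−1.38) and Ly6A_Ly6E (−1.25) were lower in follicular cells in 10 of 10 replicates. CD21_CD35, the complement receptors, had 6070, 8837 and 11195 in follicular cells against 7782, 14794 and 18398, with overlapping ranges (−0.71 ± 0.07, edgeR adjusted p = 6e-08). CD38, CD86, CD24 and CD20 were lower at −0.91, −0.90, −0.63 and −0.44, and CD69 higher at 0.46 (edgeR adjusted p = 0.0058). CD185, the CXCR5 protein (−0.09), IA_IE, MHC class II (0.07), and CD93 (0.19) did not pass. None of the 9 isotype controls passed, with log2 folds of −0.05 to 0.22.

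**Figure D2:**
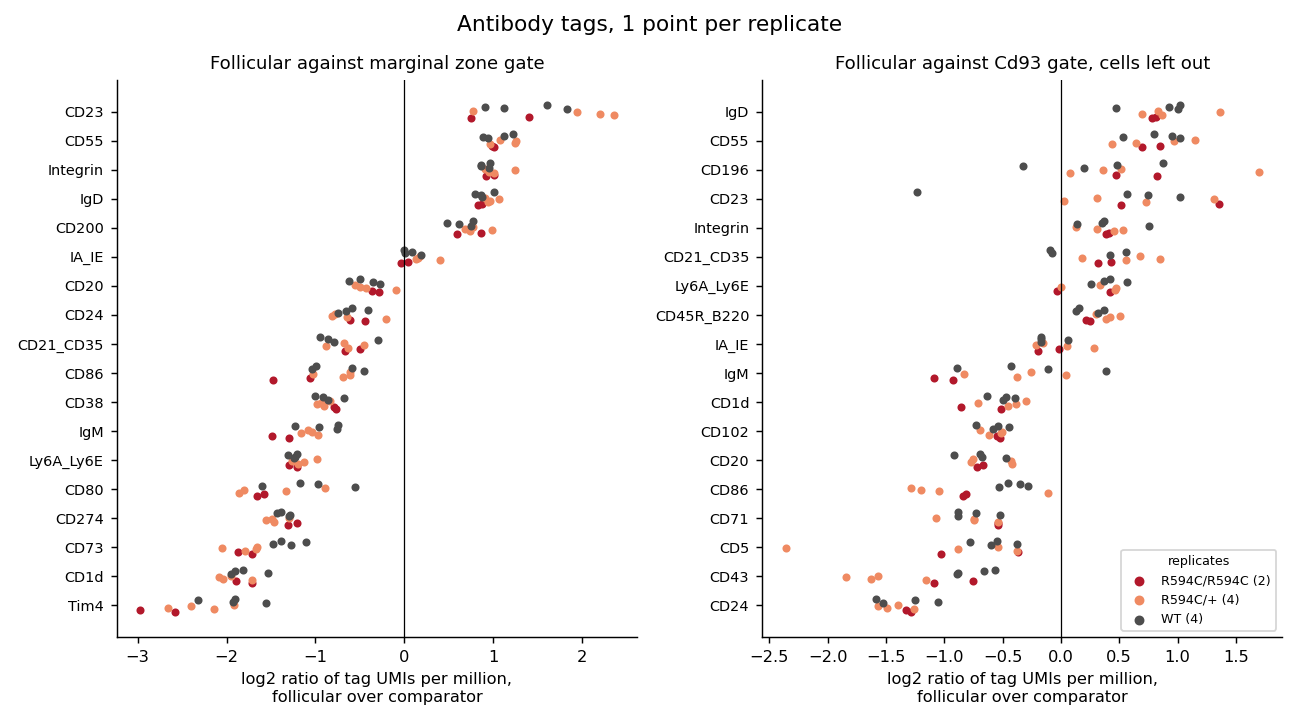
Log2 ratio of unscaled antibody tag CPM (x axis) for 18 tags (y axis), follicular cells over the marginal zone gate on the left and over the Cd93 gate without cells that held transcripts of other cells on the right, with 1 point per replicate. CD23, CD55 and IgD lie to the right of 0 and Tim4, CD1d and CD73 to the left in 10 of 10 replicates of the left panel; in the right panel CD24 lies to the left of 0.

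The RNA of the same cells is given as a description, because the rule and the gates were cut from the same transcripts. Of 8348 genes outside the rule, 3106 passed the same threshold (37.2%), from which nothing is read. Among genes with at least 50 CPM in either cell set, Gadd45g, a stress response gene, had a log2 fold of 2.17 (mean 58.2 CPM in follicular cells, 12.8 in the marginal zone gate), Crisp3 2.04, Cd55 1.81 (473 ± 45 against 135 ± 25, SD, n = 10), Wfdc17 1.78, Pgap1 1.59 (175 against 58.8), the proton channel Hvcn1 1.35 and Fchsd2 1.29. On the other side were Zc3h12c at −3.40 (7.54 against 80.9 CPM), the tetraspanin Cd9 at −3.07 (13.5 against 107), the DNase Dnase1l3 at −2.99, Rgs10 at −2.95, the Fc receptor-like Fcrl5 at −2.84, the scavenger receptor Cd36 at −2.18 (19.3 against 85.8) and Pik3r4 at −2.17. Cd55 thus had the same direction in RNA and in tag, as did Cd9, whose tag was at −0.75. Fcmr (665 against 419 CPM, 0.67), Bach2, a repressor that holds B cells in the naive state (238 against 97.3, 1.28), Ccr7 (1.00), Klf2 (0.76) and Cxcr5 (329 against 248, 0.40) were higher, and Cr2, which encodes CD21 and CD35 (238 against 469, −0.97), Cd1d1 (16.8 against 53.7, −1.63) and Plac8 (614 against 1640, −1.44) lower. Cr2 and Cd1d1 were lower in both RNA and tag.

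By list, all 12 follicular genes tested had a higher level in follicular cells (median log2 fold 0.77) and 8 of 9 marginal zone genes a lower one (median −1.63), beside a median of 0.00 over all genes. The 11 genes of MHC class II presentation were all higher (median 0.38), among them the transactivator Ciita at 0.53 and the invariant chain Cd74 at 0.41, while the IA_IE tag did not pass. Of 14 homing and egress genes 12 were higher (median 0.54), including S1pr4 at 1.46, the integrin chain Itgb7 at 1.15 and Gpr183, which guides B cells to the outer follicle, at 0.35; Itgb1 was lower at −1.27. Proliferation genes were lower (median −1.22), as were 9 of 10 ATF4 and CHOP targets (median −0.58) and 75 of 78 ribosomal protein genes (median −0.16). Of 14 ER chaperones 8 were lower, with a median of −0.05 and Pdia4, a disulphide isomerase, at −1.15 (100 against 215 CPM). Xbp1, the substrate of IRE1, was at 0.01.

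The second comparator, 846 B cells with Cd93 and without the marginal zone genes, was meant to hold transitional cells, and its RNA went against that label in part. In 176 of the 846 cells immunoglobulin took over 10% of the UMIs, and the plasma cell gene Jchain made up 19618 CPM. The gate is therefore named here by its rule, as the Cd93 gate, and the values given are those without the 198 of 846 cells that held transcripts of other cells, unless stated otherwise. In that comparison 30 of 165 tags passed (18.2%; edgeR, replicate as a block), 21 higher and 9 lower in follicular cells. With all cells, 44 of 167 passed (26.3%), 16 higher and 28 lower, and with library size alone 79, 13 higher and 66 lower.

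Compared with the Cd93 gate, the follicular cells carried more IgD, CD55, CD21_CD35 and CD23 and less CD24, the tag by which immature B cells are known. CD24 had 26448, 35986 and 45734 tag CPM in follicular cells against 65342, 100610 and 115090 in the Cd93 gate, with no overlap (−1.10 ± 0.05, edgeR adjusted p = 1.3e-12). IgD was at 1.15 ± 0.07 (edgeR adjusted p = 2e-11) and CD55 at 1.08 ± 0.06 (edgeR adjusted p = 2e-11). CD21_CD35 was at 0.65, the chemokine receptor CD196 (CCR6) at 0.72 (edgeR adjusted p = 0.0035), the tag labelled Integrin at 0.66 and CD45R_B220 at 0.58. CD23 was higher in 9 of 10 replicates (0.72 ± 0.22, edgeR adjusted p = 0.021), on 750 UMIs in follicular cells and 86 in the gate. Here too the IgD and CD23 folds are not independent of the rule. CD43, a sialoglycoprotein of early B cells (−0.83), CD5 (−0.51), the transferrin receptor CD71 (−0.44), CD86 (−0.42) and CD20 (−0.38) were lower in follicular cells, and CD1d was at −0.25. Ly6A_Ly6E and CD274 turned with the choice of cells: with all cells of the gate both passed as lower in follicular cells (−0.65, edgeR adjusted p = 1.2e-05, and −0.53, adjusted p = 0.00057), and without the 198 cells both passed as higher (0.60, adjusted p = 5.5e-08, and 0.43, adjusted p = 0.0015). A further 10 tags called with all cells changed sign and were not called without the 198 cells. IgM (−0.21), CD69 (0.34) and CD185 (0.14) did not pass. CD38 (0.26) and IA_IE (0.20) passed as higher, but their unscaled values were higher in follicular cells in only 5 and 3 of 10 replicates, so their direction depends on the scaling.

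In RNA, again as a description, 670 of 6034 genes passed against the Cd93 gate (11.1%), and 2493 of 6095 with all cells (40.9%), from which nothing is read. Traf1, an adaptor of survival receptors, was at 1.71 (126 against 40.1 CPM), Ccr6 at 1.21 (108 against 40.9), Setbp1 at 1.20, Gpr183 at 1.18 (494 against 213) and Gimap4 at 1.16. Ccr6 and its protein CD196 shared their direction. The cycling gene Top2a was at −2.86, Myb at −2.74 (14.6 against 93.7), Sox4 at −2.23 (19.5 against 91.8), the histone gene H1f5 at −2.08 and Stmn1 at −2.05. Vpreb3, a gene of immature B cells, was lower (230 against 434 CPM, −0.90), as was Cd24a (−0.65), and Cr2 was higher (257 against 155, 0.70). Follicular cells thus held less Cr2 than the marginal zone gate and more than the Cd93 gate, an order that the CD21_CD35 tag shared.

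Against all 20560 other B cells together, 46 of 170 tags passed (27.1%; edgeR, replicate as a block), 17 higher and 29 lower, and 54 with library size alone, 14 higher and 40 lower. CD23 had the highest fold (1.00 ± 0.12, edgeR adjusted p = 2.1e-06), with further high folds in IgD (0.54), CD55 (0.51), CD150 (0.48), the tag labelled Integrin (0.43), CD200 (0.39) and CD272, the inhibitory receptor BTLA (0.35). The rule split these B cells by Fcer2a and Ighd RNA among others, so the CD23 and IgD folds are not independent of it. CD39 (−1.49) and CD73 (−1.38), enzymes that degrade extracellular ATP to adenosine, had the lowest folds, followed by Tim4 (−1.12), CD11b_mh (−1.11), CD43 (−1.10), CD80 (−1.07), CD326 (−0.95) and CD1d (−0.70). The other B cells included 1019 that held transcripts of other cells, 823 of them with over 10% immunoglobulin. Without such cells 45 of 170 tags passed (26.5%), 21 higher and 24 lower; CD39 was then at −0.44, CD11b_mh at −0.79 and CD43 at −0.79, all still called, and CD326 at −0.28 was not (edgeR adjusted p = 0.059). CD73, Tim4, CD80 and CD1d were then at −1.37, −1.11, −1.03 and −0.72. In RNA, given as a description, 2867 of 10601 genes passed (27%).

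No difference between genotypes in the share of follicular cells among B cells passed its test. It was 15.5% and 13.6% in R594C/R594C, 10.1%, 12.9%, 10.2% and 11.2% in R594C/+, and 15.2%, 15.7%, 16.6% and 11.0% in WT. The R594C/R594C values lay above all R594C/+ values and within the WT range, and 1 WT replicate lay among the R594C/+ values. The means were 14.5 ± 1.36% in R594C/R594C (SD, n = 2), 11.1 ± 1.31% in R594C/+ (n = 4) and 14.6 ± 2.46% in WT (n = 4). The slope was −0.54 percentage points per R594C allele (two-sided exact permutation test over 3150 assignments, p = 0.614, adjusted p = 0.946 over 6 tests of shares). It was −0.0066 without WT replicate 3 and −1.52 without R594C/R594C replicate 1, the ends of its range when each replicate was left out in turn. R594C/+ was 3.49 points below WT (difference −3.49, exact permutation p = 0.0857 over 70 assignments, adjusted p = 0.343). R594C/R594C and WT differed by −0.10 points (exact permutation p = 0.933), in a design that cannot go below 0.0667. Among all single cells follicular cells made up 7.95 ± 1.97% in R594C/R594C, 5.72 ± 0.93% in R594C/+ and 7.73 ± 1.56% in WT (slope −0.19 points, exact permutation p = 0.788).

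Because the rule counts UMIs, the share depends on depth, and it was computed again on cells thinned to 2000 UMIs, which left out 2250 shallower single cells in R594C/R594C, 1983 in R594C/+ and 1470 in WT. It was then 10.0 ± 1.34% of B cells in R594C/R594C, 7.56 ± 1.31% in R594C/+ and 9.64 ± 1.75% in WT. R594C/+ was lowest, as unthinned, while R594C/R594C was above WT by 0.37 points where it had been below by 0.10 (difference 0.37, exact permutation p = 0.933). With 1 Fcer2a UMI as the minimum the means were 30.5% in R594C/R594C, 24.1% in R594C/+ and 30.1% in WT, and with 3 UMIs 6.26%, 5.14% and 6.72%. Fewer follicular cells and less Fcer2a or Ighd RNA per cell cannot be told apart in such a share.

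Light chains were read in cells with at least 5 light chain UMIs, since lambda use is a property of the receptor that the rule did not use. Lambda cells made up 7.10 ± 1.02% of follicular cells in R594C/R594C, 6.42 ± 3.37% in R594C/+ and 6.98 ± 1.97% in WT (slope −0.03 points per allele, exact permutation p = 0.972). The R594C/+ values spread most. R594C/+ and WT differed by −0.57 points (exact permutation p = 0.771, adjusted p = 0.946).

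**Figure D3:**
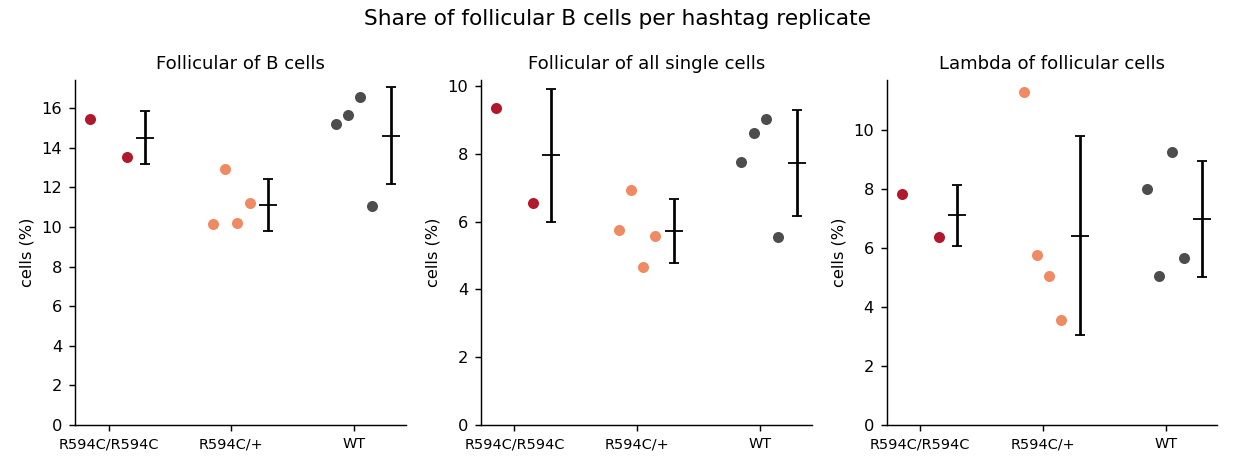
Follicular cells as a percentage of B cells (left) and of single cells (middle), and lambda cells as a percentage of follicular cells with at least 5 light chain UMIs (right), for R594C/R594C, R594C/+ and WT on the x axis, with 1 point per replicate and a bar at the mean ± SD. WT overlaps both mutant genotypes in each panel, the 2 R594C/R594C points lie above the 4 R594C/+ points in the left panel, and R594C/+ has the lowest mean in the left and middle panels.

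Genes of the follicular cells differed little between genotypes. Of 8010 genes tested, edgeR (quasi-likelihood test over all 10 replicates, Benjamini-Hochberg adjustment) called 1 for R594C/R594C against WT (0.0125%, lower), 7 for R594C/+ against WT (0.0874%, 4 higher and 3 lower) and 7 for R594C/R594C against R594C/+ (0.0874%, 2 higher and 5 lower). The first and second comparison share the WT samples, and the third shares the mutant ones. At an unadjusted p of 0.05 the counts were 293, 522 and 453, and DESeq2 called 1, 6 and 9. For R594C/R594C against WT the count was 3 without R594C/+ replicate 4, 2 without WT replicate 1 and 4 without WT replicate 2. For R594C/+ against WT it was 2 without R594C/+ replicate 1, R594C/+ replicate 2, WT replicate 3 or WT replicate 4, 3 without WT replicate 1 and 11 without WT replicate 2. For R594C/R594C against R594C/+ it was 3 without R594C/R594C replicate 1 and 11 without R594C/+ replicate 4. Without the 31 cells that held transcripts of other cells, 7, 16 and 19 of 7673 genes were called (0.0912%, 0.209% and 0.248%).

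The transcript of the mutated gene was too rare to check the labels. Ern1 had 2 and 2 UMIs in R594C/R594C, 2, 3, 3 and 3 in R594C/+, and 2, 5, 2 and 2 in WT, and it was in 0.78% of follicular cells and 2.81% of T cells. A 3' count does not read the R594C base itself. Xbp1 (chromosome 11, 5520641 to 5525993, GRCm38.p6) had 54.3 and 56.5 CPM in R594C/R594C, 108, 68.8, 65.4 and 140 in R594C/+, and 65.2, 49.1, 60.0 and 66.8 in WT. The R594C/R594C values lay among those of WT, and 2 R594C/+ replicates stood above the rest. No Xbp1 comparison passed: the log2 fold was −0.10 for R594C/R594C against WT (edgeR adjusted p = 1), 0.70 for R594C/+ against WT (adjusted p = 0.55) and −0.80 for R594C/R594C against R594C/+ (adjusted p = 0.48). Without the cells that held transcripts of other cells the last 2 folds were 0.12 and −0.13. These counts do not tell spliced from unspliced Xbp1.

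The largest genotype differences were in transcripts of switched immunoglobulin, which resting follicular cells do not make. Ighg2c (chromosome 12, 113287389 to 113288932, GRCm38.p6), the constant region of IgG2c, had 6.13 and 8.52 CPM in R594C/R594C, 55.6, 62.4, 69.9 and 111 in R594C/+, and 37.9, 43.5, 36.2 and 58.0 in WT. Every R594C/R594C value was below every other. The log2 fold was −2.55 ± 0.30 against WT (edgeR adjusted p = 3.6e-05) and −3.37 ± 0.29 against R594C/+ (adjusted p = 2.3e-08). Ighg1 had 1.31 and 3.73 CPM in R594C/R594C, 33.1, 29.3, 27.4 and 36.7 in R594C/+, and 2.37, 4.75, 6.21 and 5.28 in WT. It stood apart in R594C/+, at 2.74 ± 0.35 against WT (edgeR adjusted p = 1.3e-05), and R594C/R594C was at −3.65 ± 0.42 against R594C/+ (adjusted p = 3.6e-07).

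Both genes were as frequent in T cells of the same capture. Ighg2c had a UMI in 2.18% of follicular and 2.39% of T cells in R594C/R594C, 18.0% and 19.6% in R594C/+, and 10.9% and 10.7% in WT. For Ighg1 the shares were 0.726% and 0.928% in R594C/R594C, 8.62% and 8.62% in R594C/+, and 1.58% and 1.40% in WT. Their shares thus moved with the capture in both cell types, and the differences are not read as ones of follicular cells. Whether the UMIs came from free RNA was not tested. Jchain behaved alike, in 27.4% of follicular and 27.3% of T cells in R594C/R594C, 39.5% and 40.6% in R594C/+, and 23.9% and 27.2% in WT, as did Hbb-bs, in 25.9% and 26.5% in R594C/R594C, 27.1% and 25.4% in R594C/+, and 9.82% and 9.60% in WT. With the 31 cells left out the additional calls included Hbb-bs (1.47), Hba-a1 (1.30) and Hbb-bt (1.10) for R594C/R594C against WT, and S100a8 (2.08), S100a9 (1.88) and Camp (1.83) for R594C/+ against WT, all of erythroid or neutrophil cells.

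**Figure D4:**
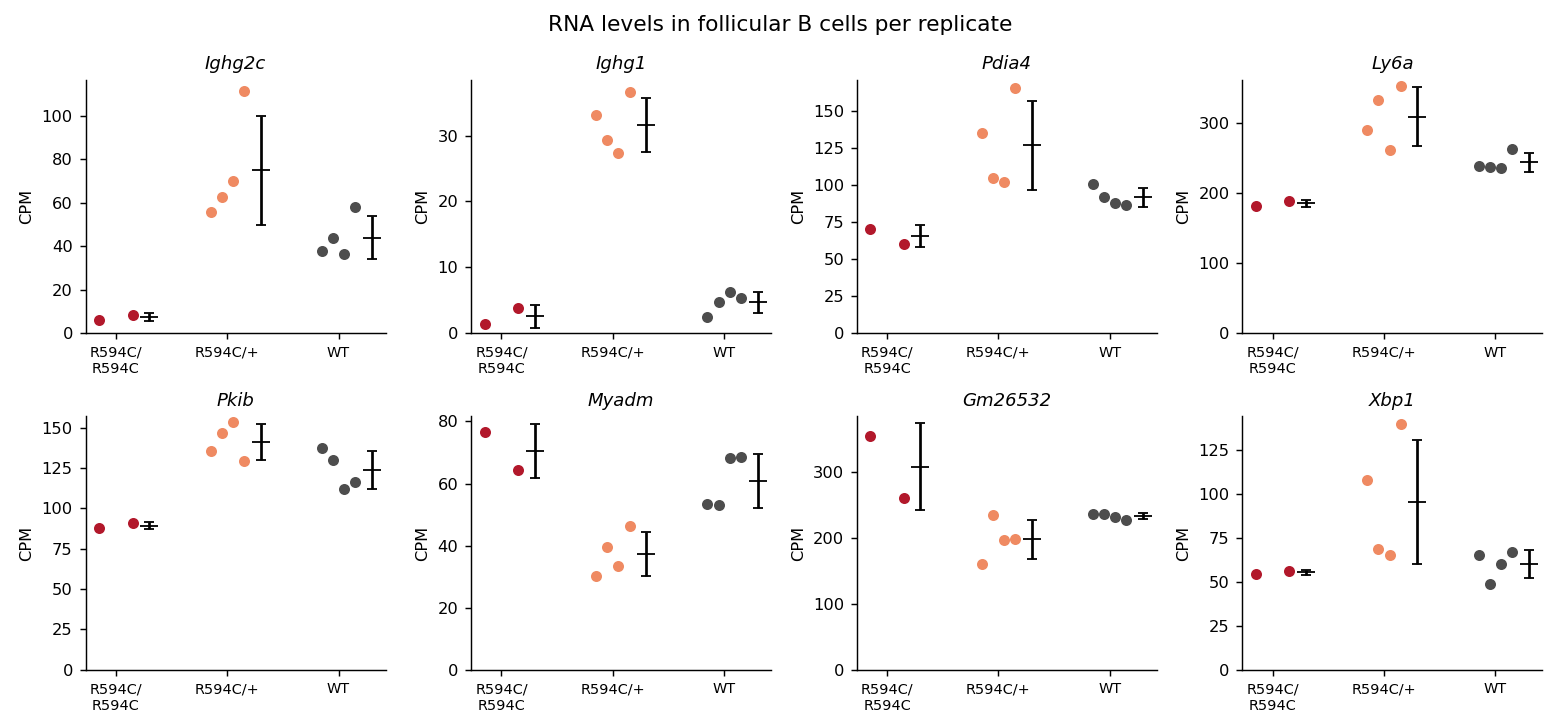
CPM of summed follicular cells (y axis) for Ighg2c, Ighg1, Pdia4, Ly6a, Pkib, Myadm, Gm26532 and Xbp1, by R594C/R594C, R594C/+ and WT (x axis), with 1 point per replicate and a bar at the mean ± SD. The 2 R594C/R594C replicates lie below the other groups for Ighg2c and Pdia4, and the 4 R594C/+ replicates lie above them for Ighg1.

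The other 5 genes called between R594C/R594C and R594C/+ had a UMI in a smaller share of T cells than of follicular cells in each capture. Pdia4 (chromosome 6, 47796141 to 47813512, GRCm38.p6), an ER disulphide isomerase, had 70.5 and 60.2 CPM in R594C/R594C, 135, 105, 102 and 166 in R594C/+, and 101, 91.8, 87.9 and 86.2 in WT. R594C/R594C was below both other groups with no overlap. It was in 18.2% of follicular and 13.9% of T cells in R594C/R594C, 24.9% and 14.9% in R594C/+, and 23.8% and 16.7% in WT. The fold was −0.96 ± 0.16 against R594C/+ (edgeR adjusted p = 0.0013), while −0.49 against WT and 0.47 for R594C/+ against WT did not pass (adjusted p = 0.90 and 0.38). Without the cells that held transcripts of other cells it was −0.65 (edgeR adjusted p = 0.037). The call held in 18 of 23 alternatives. It was lost after thinning to 2000 UMIs, where the fold was −0.08 (adjusted p = 0.99), at a minimum of 1 or 3 Fcer2a UMIs (−0.62 and −1.19), without cells above 2 times the median depth (−0.62) and without R594C/R594C replicate 2 (−0.85). Ly6a, which encodes Sca-1, had 182 and 190 CPM in R594C/R594C, 290, 334, 262 and 354 in R594C/+, and 239, 238, 236 and 264 in WT. Again R594C/R594C was lowest (−0.74 ± 0.12 against R594C/+, edgeR adjusted p = 0.00054). The call held in 20 of 23 alternatives and was lost at a minimum of 3 Fcer2a UMIs (−0.39, adjusted p = 0.82), after thinning (−0.54, adjusted p = 0.17) and without R594C/R594C replicate 1 (−0.71, adjusted p = 0.11). In T cells it also had its lowest share in R594C/R594C: it was in 34.3% of follicular and 12.9% of T cells there, 43.3% and 22.3% in R594C/+, and 40.9% and 22.5% in WT.

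Pkib, an inhibitor of protein kinase A, had 87.6 and 91.1 CPM in R594C/R594C, 135, 147, 154 and 129 in R594C/+, and 138, 130, 112 and 116 in WT (−0.66 ± 0.13 against R594C/+, edgeR adjusted p = 0.016). It was in 21.6%, 30.6% and 28.6% of follicular cells and in 0.731%, 0.677% and 0.790% of T cells of R594C/R594C, R594C/+ and WT. Pkib was the gene of this group most nearly absent from T cells. Myadm had 76.7 and 64.5 CPM in R594C/R594C, 30.1, 39.5, 33.5 and 46.2 in R594C/+, and 53.3, 53.0, 68.3 and 68.6 in WT, so that R594C/+ was lowest (0.90 ± 0.18 for R594C/R594C against R594C/+, edgeR adjusted p = 0.016). The unnamed transcript Gm26532 had 355 and 262 CPM in R594C/R594C, 161, 235, 198 and 199 in R594C/+, and 237, 237, 232 and 227 in WT (0.64 ± 0.12, edgeR adjusted p = 0.013). Over 23 alternatives per gene, Pkib passed in 16, Myadm in 15 and Gm26532 in 17, which are counts of settings and not of samples. Each of these genes lost its call with expressed sex in the fit. Each also lost it without R594C/R594C replicate 1, the only male replicate in this comparison. The part of sex was not tested further.

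Other genes called between R594C/+ and WT were of ribosomes, the cytoskeleton and antigen presentation. Gm10076 had 333 and 372 CPM in R594C/R594C, 493, 486, 444 and 495 in R594C/+, and 320, 314, 305 and 274 in WT (0.66 ± 0.09 for R594C/+ against WT, edgeR adjusted p = 1.3e-05), and kept its call in each of 23 alternatives. The ribosomal genes Rpl35 (0.31, adjusted p = 0.023) and Rps10 (−0.28, adjusted p = 0.038) also passed in edgeR. These 3 belong to families with near-identical copies, and how reads were shared among the copies makes their values uncertain. Myl12b, a myosin light chain, had 165 and 142 CPM in R594C/R594C, 138, 115, 144 and 109 in R594C/+, and 211, 152, 183 and 220 in WT (−0.59 ± 0.12, edgeR adjusted p = 0.031). H2-Aa, a chain of MHC class II, had 5293 and 5309 CPM in R594C/R594C, 4778, 4898, 5155 and 4885 in R594C/+, and 6098, 5380, 5430 and 5726 in WT. The R594C/+ values were all below those of WT, by little (−0.20 ± 0.04, edgeR adjusted p = 0.038), and the call held in 7 of 23 alternatives. With expressed sex as a term 3 genes were called in this comparison; the part of sex cannot be told apart further, since all R594C/+ replicates were female and 3 of 4 WT replicates male.

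Fixed gene lists are described by counts and medians, beside all genes tested. Over all genes the median log2 fold was −0.00 for R594C/R594C against WT with 51.4% lower, 0.00 for R594C/+ against WT with 49.8% lower, and −0.01 for R594C/R594C against R594C/+ with 51.3% lower. The list counts at an unadjusted edgeR p under 0.05 stand beside 293, 522 and 453 of all 8010 genes in these 3 comparisons. The follicular programme (12 genes tested) had 5 higher and 7 lower members in R594C/R594C against WT (median −0.04), and none was called. Cxcr5 had 321 and 323 CPM in R594C/R594C, 291 to 335 in R594C/+ and 313 to 405 in WT. Cd55 had 529 and 473 in R594C/R594C, 386 to 448 in R594C/+ and 487 to 527 in WT, so its R594C/+ values lay below the others (−0.22 against WT, edgeR adjusted p = 0.59). In R594C/+ against WT, 11 of the 12 follicular genes were lower (median −0.12), 2 of them at an unadjusted p under 0.05 and none called.

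Among the lists was one of ER chaperones, the folding machinery of the secretory pathway. In R594C/R594C against WT 13 of 14 were lower (median −0.23), none called and 4 at an unadjusted p under 0.05: Pdia4 (−0.49), Calr (−0.22), Dnajc3 (−0.33) and Pdia6 (−0.31). DESeq2 was read for the whole table only, and its 1 call in this comparison stands above. In R594C/R594C against R594C/+ 13 of 14 were lower (median −0.39), with Pdia4 called and 7 at an unadjusted p under 0.05, among them Creld2 (−0.88), Sdf2l1 (−0.80) and Manf (−0.50). Without the cells that held transcripts of other cells the medians were −0.20 and −0.23. In R594C/+ against WT 12 of 14 were higher (median 0.15), and 8 of 14 without those cells (median 0.06).

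Calr, the calcium-binding chaperone calreticulin, had 420 and 428 CPM in R594C/R594C, 574, 530, 525 and 487 in R594C/+, and 494, 521, 465 and 491 in WT. Both R594C/R594C values were below all others, but no comparison passed (−0.22 against WT, edgeR adjusted p = 1). Hspa5, the chaperone BiP, had 516 and 695 in R594C/R594C, 678, 692, 712 and 849 in R594C/+, and 546, 807, 587 and 684 in WT, with overlap between all groups. The targets of XBP1s in secretion had 22 of 28 lower in R594C/R594C against WT (median −0.14, 2 at an unadjusted p under 0.05) and 16 of 28 higher in R594C/+ against WT (median 0.06). Of 5 substrates of IRE1-dependent decay 4 were lower in both (medians −0.16 and −0.15), and none of these genes was called. The ATF4 and CHOP targets had 7 of 9 higher in R594C/R594C (median 0.16) and 9 of 9 in R594C/+ (median 0.24), none called. Plasma cell genes, which share the secretory programme, moved beside these lists. Their summed level was 473 to 547 CPM in R594C/R594C, 545 to 1549 in R594C/+ and 430 to 2112 in WT, and without the 31 cells 484 to 557 in R594C/R594C, 527 to 601 in R594C/+ and 401 to 544 in WT. Their part in the lists' values was not tested.

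Most chaperones were lower in R594C/R594C than in WT and, with all cells of the rule, higher in R594C/+ than in WT, as given above. Without the cells that held transcripts of other cells, the chaperones leaned less to the higher side in R594C/+. Their promoters were searched for the ER stress element ERSE (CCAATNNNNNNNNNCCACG, both strands), in the 250 bases before and 50 after each RefSeq start site of GRCm38.p6. Of the 12 chaperone genes with a promoter record 7 held a match, against 37 of 27025 genes (0.137%). The 7 were Calr, Canx, Creld2, Dnajc3, Hsp90b1, Hspa5 and Pdia6; that of Pdia4, the called gene, held none. Syvn1 was the only one of 20 secretory genes with a match. The core TGACGTGG of the element UPRE, was in 0 of 12 chaperone genes, 1 of 20 secretory genes (Sec24d) and 0.714% of all genes. The windows below show the element in capitals with 20 bases on each side, read on the strand of the gene; in Creld2 and Calr the element lies on the opposite strand.
Hspa5, chr2:34772005-34772063 (+): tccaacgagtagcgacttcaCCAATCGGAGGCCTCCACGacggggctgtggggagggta
Dnajc3, chr14:118937807-118937865 (+): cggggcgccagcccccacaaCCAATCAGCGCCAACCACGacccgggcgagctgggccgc
Pdia6, chr12:17266471-17266529 (+): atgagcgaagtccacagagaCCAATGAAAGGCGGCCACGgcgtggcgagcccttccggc
Creld2, chr15:88819500-88819558 (+): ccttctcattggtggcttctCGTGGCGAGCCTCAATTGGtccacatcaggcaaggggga
Calr, chr8:84847055-84847113 (-): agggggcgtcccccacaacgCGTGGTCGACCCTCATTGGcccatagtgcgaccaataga
A match is a description of these letters and not a measured site. The letters are those of the reference genome and do not depend on the counts, so the matches bear on no difference between genotypes. The cause of the chaperone values was not tested.

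Genes of antigen presentation leaned lower in R594C/R594C. All 15 genes of MHC class I presentation were lower than in WT (median −0.21, 5 at an unadjusted p under 0.05, none called by edgeR), and 14 of 15 were lower than in R594C/+ (median −0.24, 7 unadjusted). H2-K1, a class I heavy chain, had 1493 and 1616 CPM in R594C/R594C, 1933, 1885, 1691 and 1841 in R594C/+, and 1944, 1783, 1811 and 1854 in WT. Both R594C/R594C values lay below the rest (−0.25 ± 0.07 against WT, edgeR adjusted p = 0.80). H2-Q7 had 297 and 249 CPM in R594C/R594C, 427, 437, 309 and 401 in R594C/+, and 428, 348, 341 and 348 in WT. B2m, the light chain of class I, was at −0.22 against WT. Class I genes are a family with similar copies, so reads may be shared among them. Interferon gamma response genes had 11 of 12 lower in R594C/R594C against WT (median −0.27, 2 unadjusted) and 11 of 12 higher in R594C/+ against WT (median 0.20). Irf1, a transcription factor of that response, had 73.6 and 68.7 CPM in R594C/R594C, 87.2, 89.2, 97.3 and 91.2 in R594C/+, and 96.0, 95.8, 86.9 and 89.7 in WT (−0.37, edgeR adjusted p = 1).

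The 11 genes of MHC class II presentation were all lower in R594C/R594C against WT (median −0.11, 3 unadjusted, none called), and 10 of 11 in R594C/+ against WT (median −0.14, 6 unadjusted, H2-Aa called). Both comparisons use the same WT replicates, of which replicate 1 was the highest for H2-Aa and for Cd74. Cd74 had 12772 and 12904 CPM in R594C/R594C, 12269 to 13309 in R594C/+ and 13313 to 15242 in WT. Type I interferon genes had 5 of 8 higher in R594C/R594C (median 0.05) and 6 of 8 in R594C/+ (median 0.25). The signalling chain of the B cell receptor, 18 genes, had medians of −0.07 in R594C/R594C and −0.02 in R594C/+ against WT, and 12 genes of BAFF, the survival factor of follicular cells, medians of −0.03 and 0.03. Homing and egress genes had 7 of 14 lower in R594C/R594C (median 0.00) and 11 of 14 in R594C/+ (median −0.10). Immediate early and activation genes had 13 of 18 higher in both (medians 0.06 and 0.12). Of the 78 ribosomal protein genes 57 were lower in R594C/R594C (median −0.05) and 55 higher in R594C/+ (median 0.03, Rpl35 called higher and Rps10 lower). Genes of marginal zone cells had medians of −0.03 in R594C/R594C (8 tested) and 0.04 in R594C/+, those of transitional cells 0.09 (3 tested) and −0.05, those of B1 cells −0.05 (5 tested) and 0.20, and proliferation genes 0.11 and 0.58, with 12 of 13 higher in each. Apart from those named, no member of the lists in this paragraph was called by edgeR in either comparison with WT.

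**Figure D5:**
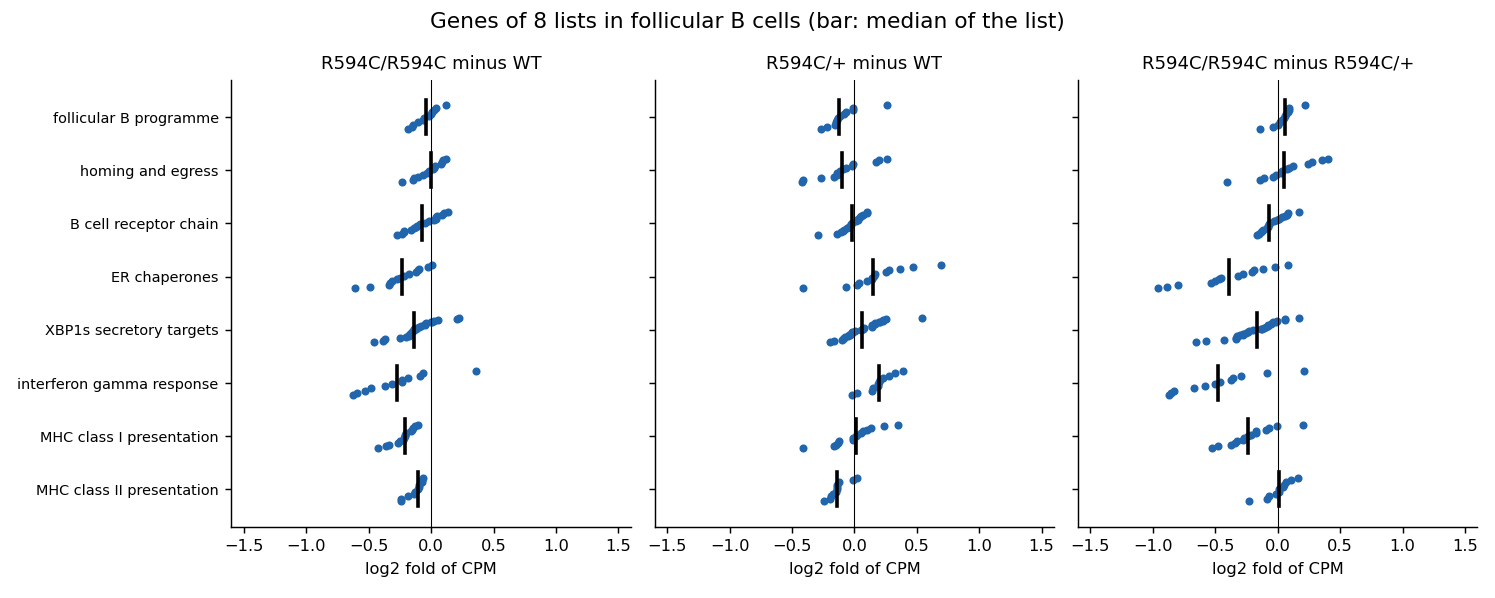
Log2 fold (x axis) of each tested gene of 8 lists (y axis) in follicular cells for R594C/R594C against WT, R594C/+ against WT and R594C/R594C against R594C/+, with 1 point per gene and a bar at the list's median. The ER chaperones lie mostly below 0 in the panels with R594C/R594C (13 of 14 lower) and mostly above 0 for R594C/+ against WT (12 of 14 higher). These counts are for all cells of the rule. Without the cells that held transcripts of other cells, fewer chaperones were higher in R594C/+ than in WT.

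Transcripts of other cells in the summed follicular cells were high in single replicates. Erythroid genes summed to 243 to 290 CPM in R594C/R594C, 215 to 3527 in R594C/+ and 88.5 to 1104 in WT, and without the 31 cells to 215 to 249 in R594C/R594C, 203 to 293 in R594C/+ and 91.5 to 106 in WT. Neutrophil genes summed to 70.7 to 81.4 CPM in R594C/R594C, 142 to 4782 in R594C/+ and 29.1 to 56.5 in WT, with Mmp8 at 0. Without those cells the neutrophil sums were 72.6 to 72.7 in R594C/R594C, 143 to 176 in R594C/+ and 27.1 to 57.3 in WT. T cell genes summed to 257 to 299 in R594C/R594C, 224 to 253 in R594C/+ and 259 to 324 in WT. Monocyte genes summed to 70.8 to 101 in R594C/R594C, 29.3 to 296 in R594C/+ and 18.6 to 523 in WT. The part of these transcripts in the genotype comparisons was not tested beyond leaving out the 31 cells. The neutrophil sums of both mutant genotypes lay above those of WT with and without the 31 cells, and the erythroid sums did so without them.

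Whether a genotype difference was particular to follicular cells was tested as an interaction with all other B cells. EdgeR called 0 of 10601 genes (0%) for R594C/R594C against WT and 0 for R594C/+ against WT, with 530 and 464 genes at an unadjusted p under 0.05; no other tool was run on the interaction. No genotype difference can therefore be called particular to these cells.

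Antibody tags differed widely between genotypes, isotype controls included. For R594C/R594C against WT 110 of 169 tags passed in edgeR (65.1%), 42 higher and 68 lower, for R594C/+ against WT 84 (49.7%), 27 and 57, and for R594C/R594C against R594C/+ 81 (47.9%), 38 and 43. With library size alone the splits were 1 higher and 106 lower, 2 higher and 85 lower, and 3 higher and 82 lower. The summed isotype controls had 971 and 766 tag CPM in R594C/R594C, 2455, 2159, 2122 and 2419 in R594C/+, and 4895, 4966, 5450 and 5510 in WT. All 9 isotype tags were lower in R594C/R594C than in WT (median log2 fold −1.57) and 6 of 9 were called lower in R594C/+ (median −0.85). Each genotype was its own capture with its own antibody tag library, so no tag difference between genotypes was read as one of the cells. CD23 had 145 and 184 tag CPM in R594C/R594C, 925, 1466, 378 and 197 in R594C/+, and 708, 959, 448 and 445 in WT, and did not pass in any comparison (−0.86 ± 0.69 against WT, edgeR adjusted p = 0.30). IgD had 217070 and 217000 in R594C/R594C, 175620 to 216780 in R594C/+ and 187510 to 206410 in WT; it was called higher in R594C/R594C (1.22 ± 0.15, edgeR adjusted p = 3.1e-05), a fold far above its unscaled values.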

How the data were processed

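CITE-seq of total splenocytes was deposited as mRNA, antibody tag and hashtag libraries of 3 captures (9 samples). The authors deposited raw UMI counts per gene, tag and barcode; the counts came from Cell Ranger 5.0.0, per the file headers. The submitters' processing notes name mm10, STAR, Cell Ranger and Seurat 3.1.4 without saying what each was used for. The files hold 55385 genes, 191 tags and 24 hashtags, and no barcode held fewer than 500 RNA UMIs. Which upstream filters set this limit is not stated in the labels.

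Cells were chosen by the thresholds stated in the report, and 15686 single cells in R594C/R594C, 15712 in R594C/+ and 13819 in WT carried a labelled hashtag. No doublet caller was run: doublets were limited by the hashtag margin and by the absence of Cd3 UMIs, and an alternative left out cells above 2 times the median depth. Counts were summed per replicate and gate. The tests were edgeR 4.0.16 (robust quasi-likelihood, TMM, filterByExpr; tags averaging 10 or more UMIs in a replicate) in R 4.3.3 with limma 3.58.1, and Benjamini-Hochberg adjustment at 0.05, after the scripts had been tested on simulated data. DESeq2 1.42.0 was an alternative. Genes of the rule and mitochondrial genes were described and left out of counts. Printed CPM of genes use TMM-scaled library sizes, and printed tag CPM are unscaled. Shares were tested by exact permutation (scipy 1.17.1, Python 3.11.15, numpy 2.4.6, pandas 2.3.3, matplotlib 3.10.9).

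The members and the 25 gene lists were chosen with earlier results of these data known. The text names Ern1 and Xbp1; the rule's genes and fixed markers; up to the 10 highest and lowest folds past 0.05 for R594C/R594C against WT and for the marginal zone gate (at least 50 CPM), 8 for the other genotype comparisons, 5 for the Cd93 gate; for tags the 8 highest and lowest called of each gate comparison; and the list members given with values. Genotype tag folds beyond CD23, IgD and the isotype controls were left out because each genotype was its own capture. Promoters came from RefSeq (GRCm38.p6). Alternatives changed the filter, the scaling, the tool, the Fcer2a minimum, the hashtag margin, depth, a sex term, the samples fitted and the immunoglobulin genes, and left out each replicate in turn. A few members of these sets are not reported here.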

Additional observations from a re-analysis of the deposited data

Results flagged for a closer look

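Within the groups of 4 replicates, 16 of 110 groups of values held 1 sample far from the nearest other one; chance gives about 1 in 20 groups. Most were transcripts of plasma, erythroid or neutrophil cells in single replicates of the summed follicular cells. In R594C/+ replicate 4, Ighg2b was at 6802 CPM (nearest replicate 86.7), Ighg3 at 343 (54.8), Hbb-bt at 727 (53.5), Hba-a1 at 984 (47.1) and Hbb-bs at 1382 (135). In R594C/+ replicate 3, S100a9 was at 2200 CPM (84.1), S100a8 at 1096 (39.5) and Camp at 715 (21.3). In WT replicate 2, Igha was at 215 CPM (44.5), Hbb-bt at 267 (21.7), Hba-a1 at 199 (19.0) and Hbb-bs at 464 (40.3), and in WT replicate 4 Jchain was at 1744 (140). The 31 cells left out in the alternative were 8 with over 10% immunoglobulin UMIs, 4 with neutrophil, 6 with erythroid and 15 with monocyte transcripts, some under more than 1 heading.

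The other samples that stood apart from their group were Ly6a in WT replicate 4 (264 CPM, nearest 239), H2-Q7 in WT replicate 1 (428 CPM, nearest 348) and the CD21_CD35 tag in R594C/+ replicate 3, the lowest of its group at 6069 tag CPM (nearest 9216).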

How the results depend on the processing

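Counts of genes called between genotypes were small and moved with most settings. For R594C/R594C against WT (1 gene) they were 6 with no filter on low counts, 3 with only those 2 genotypes fitted, 2 at a hashtag margin of 10 times, 4 after thinning to 2000 UMIs, 8 without cells above 2 times the median depth, 7 without cells holding transcripts of other cells, and 0 at a minimum of 1 Fcer2a UMI or without immunoglobulin genes. For R594C/+ against WT (7 genes) they were 13 with no filter, 13 with the replicate block, 3 with expressed sex in the fit, 15 and 2 at a minimum of 1 and 3 Fcer2a UMIs, 14 at the 10 times margin and 16 without the cells holding other transcripts. For R594C/R594C against R594C/+ (7 genes) they were 25 with no filter, 14 with the replicate block, 16 with only those 2 genotypes, 3 at a minimum of 3 Fcer2a UMIs, 12 at the 10 times margin, 4 after thinning and 19 without the cells holding other transcripts. Between the gates, genes called were 2026 with DESeq2 and 815 after thinning for the marginal zone gate, 277 after thinning and 670 without the cells holding other transcripts for the Cd93 gate, and 520 after thinning for all other B cells; tags called against the Cd93 gate were 79 with library size alone. The cause was not tested, except that thinning leaves fewer UMIs.

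Replicate numbers did not pair the samples (correlations of same-numbered replicates over 4356 genes of −0.10 to 0.29), so the block is given only here. It called 1 gene for R594C/R594C against WT.

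Leaving out each replicate in turn gave 1 to 4, 2 to 11 and 3 to 11 genes for the 3 genotype comparisons. The slope of the follicular share per allele ranged from −1.52 to −0.0066 points of B cells and from −1.06 to 0.153 points of single cells, and that of the lambda share from −0.390 to 0.413, with R594C/+ minus WT from −2.19 to 0.380. The lambda slope also changed sign at a minimum of 1 Fcer2a UMI (0.480), at the 10 times margin (0.218) and without the cells holding other transcripts (0.0082), and its R594C/+ minus WT difference at 1 Fcer2a UMI (0.172) and after thinning (0.150). Against the Cd93 gate 12 of the tags called with all cells changed sign without those cells, among them the lowest folds and fixed markers CD11b_mh (0.31), CD326 (0.16), CD39 (0.031), CD69 (0.34) and ENPP1 (0.11), none of these 5 then called, and Ly6A_Ly6E and CD274, called both ways. In all, 39 main values moved and 15 changed sign, given above singly or as ranges, and 230 kept their direction and side of the threshold. Of single genes or tags 5934 kept both, 101 lost their call, 431 moved by more than the spread and 5 changed sign. Tags with few UMIs, CD23, CD93 (111) and CD185 (406) among them, limit what can be read from them.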
